A study of Mus musculus with 12 samples.

Results

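The 9 genes Ttyh1, Nxf3, Clec12b, Vsig1, Tmem114, Aard, Lcn2, Slc52a3 and Mro were examined in mouse gonads with and without Foxl2, a forkhead transcription factor that granulosa cells need to keep their identity. They were chosen by their adult values, as genes with large rises from wild-type to Foxl2 mutant ovary, so that contrast is described here without a test. Each was measured by 1 probe set in the adult table, which gave 19938 genes in all, and all 9 were also among the 18194 genes of the newborn table, where Ttyh1 alone had more than 1 probe set (4, of which the brightest was used).

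The adult groups, at 8 weeks, were 2 wild-type ovaries, 3 ovaries labelled Foxl2 flox/flox x CreEBD, and 3 wild-type testes, each array holding an organ of a single animal perfused with saline (0.25 of a testis, or a whole ovary). The labels used here do not say which promoter drives the Cre, when the floxed gene was deleted or in which cells, and neither control group is labelled as carrying the floxed allele or the Cre. The newborn groups, at postnatal day 3 (P3), were 2 wild-type and 2 Foxl2 knockout (KO) pools of ovaries from more than 10 females each, not perfused, with no description of the KO allele. The question is whether genes far above the wild-type level in adult mutant ovary also differed between testis and ovary, and in ovaries that lacked Foxl2 at birth.

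When adult granulosa cells lose Foxl2 they can take on features of Sertoli cells, which nurse the germ cells in the testis tubule and share an embryonic origin with granulosa cells. Sox9 and Dmrt1 are the transcription factors best known for the Sertoli side of that balance. The 9 genes come from unrelated families. Ttyh1 is a Tweety membrane protein, Nxf3 a relative of the general mRNA exporter Nxf1, Clec12b a C-type lectin receptor with an inhibitory tail, Vsig1 a junctional immunoglobulin-domain protein, Tmem114 a claudin-like membrane protein, Aard a small alanine- and arginine-rich protein, Lcn2 a secreted lipocalin that binds bacterial siderophores, Slc52a3 a riboflavin transporter, and Mro (maestro) a gene first described in the developing male gonad.

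Adult values are RMA levels on a log2 scale, and P3 values are MAS5 signals on a linear scale. Levels are compared only within a gene, since different probe sets respond differently. Differences carry the standard error (SE) of a limma fit, in which the 3 adult groups share a single estimate of a gene's spread. For Aard the standard deviation was 1.82 in wild-type ovaries, 0.02 in mutant ovaries and 0.10 in testes. For Mro it was 1.24, 0.24 and 0.06. The SE of these genes thus understates the spread between the wild-type ovaries. To pass, a gene needed an adjusted p under 0.05, by the Benjamini-Hochberg method across every gene of its table. The number of arrays limits the precision. Array medians lay between 4.834 and 4.939 in the adult set and between 116.6 and 126.8 at P3. The wild-type ovaries differed from each other: 679 genes (3.41%) were more than 1 log2 unit apart, and the mean level of 8 oocyte genes was 7.14 in wild-type ovary 1 and 5.51 in wild-type ovary 2. Where leaving out either ovary changes a call or a count below, the value without it is given.

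The targeted gene checked the labels: Foxl2 was lower in each mutant array. Its adult level was 8.75 and 8.81 in wild-type ovaries, 5.81, 6.04 and 5.73 in mutant ovaries, and 5.22, 5.38 and 5.31 in testes. At P3 its signal was 814.5 and 829.9 in wild-type and 186.4 and 153.7 in KO pools, a difference of -2.18 ± 0.21 (SE, limma adjusted p = 0.0238). With any of the 4 pools left out it stayed between -2.30 and -2.05 but no longer passed (limma adjusted p from 0.0854 to 0.333).

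The stretch upstream of a gene is shown first, because genes that move together invite a look at the DNA around their start. RefSeq promoter windows (GRCm38.p6) were at hand for 5 of the 9 genes, namely Ttyh1, Clec12b, Vsig1, Tmem114 and Lcn2. The 250 bases before the start are printed for Clec12b and Vsig1, which held a searched motif there, and for Ttyh1, the gene of the set with the highest mutant over wild-type difference, which held none. Capitals mark a match to AACAAT, a core recognised by SOX factors, or to CAAGGNCA, an element of the nuclear receptor SF1, here on the opposite strand and so printed as its reverse complement. Clec12b lies at chr6:129385504-129385753 on the minus strand, Vsig1 at chrX:140907358-140907607 on the plus strand, and Ttyh1 at chr7:4119280-4119529 on the plus strand.
Clec12b: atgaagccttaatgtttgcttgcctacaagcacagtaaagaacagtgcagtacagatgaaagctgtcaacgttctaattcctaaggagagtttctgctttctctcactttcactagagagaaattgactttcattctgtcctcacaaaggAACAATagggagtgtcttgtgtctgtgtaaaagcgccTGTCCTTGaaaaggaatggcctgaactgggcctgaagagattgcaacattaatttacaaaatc
Vsig1: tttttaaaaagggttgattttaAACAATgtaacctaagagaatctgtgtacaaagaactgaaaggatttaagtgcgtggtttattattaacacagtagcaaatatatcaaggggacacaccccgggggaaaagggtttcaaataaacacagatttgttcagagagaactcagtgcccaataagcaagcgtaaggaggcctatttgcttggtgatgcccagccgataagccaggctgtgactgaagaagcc
Ttyh1: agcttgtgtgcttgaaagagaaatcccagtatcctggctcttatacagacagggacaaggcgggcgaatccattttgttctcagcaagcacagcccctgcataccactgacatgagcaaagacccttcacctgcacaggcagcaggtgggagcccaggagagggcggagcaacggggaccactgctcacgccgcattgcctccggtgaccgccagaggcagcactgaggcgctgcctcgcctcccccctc
Each window was searched on both strands, over 300 bases with the first 50 after the start included. AACAAT stood in 2 of the 5 windows, 100 bases before the start of Clec12b and 228 bases before that of Vsig1, against 10.7% of all 32851 windows. CAAGGNCA stood in 1 of the 5, from 63 bases before the start of Clec12b, against 6.71% of all windows. None of the 5 held the forkhead core GTAAACA (3.65% of all windows), the GATA core AGATAA (11.2%) or the TATA box TATAAA (13.6%). With 5 windows these counts describe the letters and nothing more.

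In adult ovaries 8 of the 9 genes were 19.6 to 35.7 times higher in the mutant than in the wild-type mean, and Mro was 2.87 times higher. In both wild-type ovaries Ttyh1, Nxf3, Clec12b and Vsig1 lay below the array median (4.865 and 4.883). Their folds start from dim signals, so the size of these folds is uncertain. Mutant against wild-type ovary is the contrast that chose the 9 genes, and over all genes 9.55% passed as higher in it and 6.66% as lower. The median difference of the 9 genes was 5.0 against -0.02 over all genes. The label of strongest risers holds for 8 of the 9 genes, which were 8 of the 14 largest differences among all genes. It does not hold for Mro, which stood 365th.

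**Figure D1:**
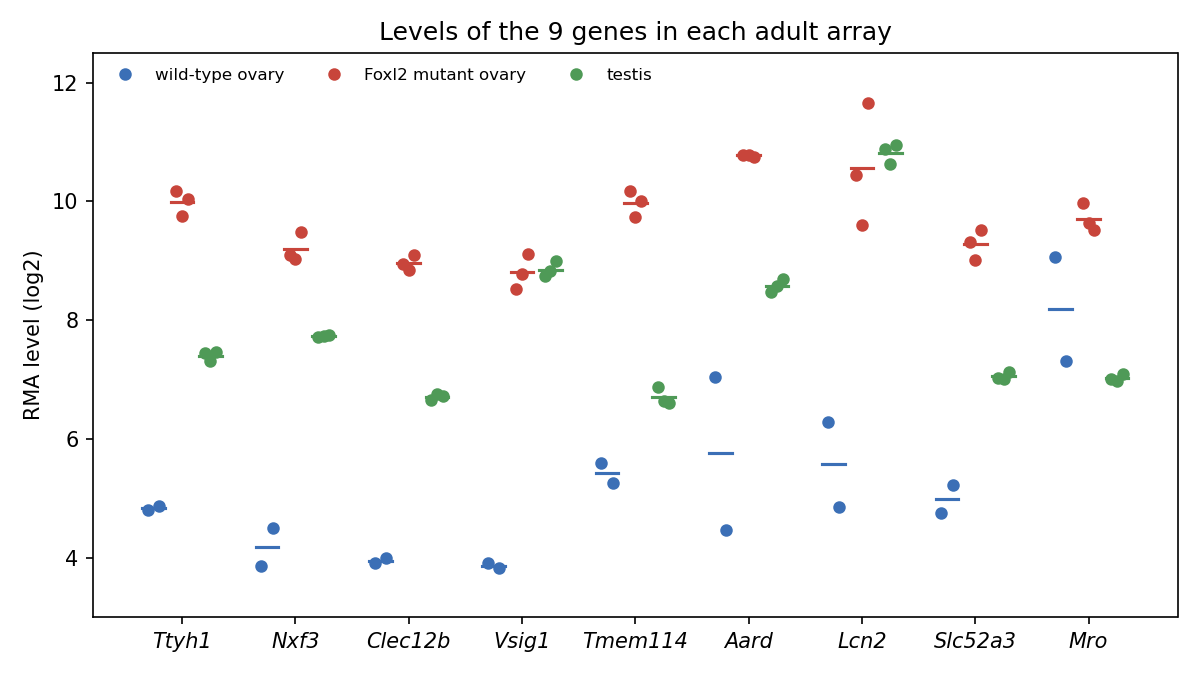
RMA level (log2, vertical axis) of each of the 9 genes in the 2 wild-type ovaries (blue), 3 Foxl2 mutant ovaries (red) and 3 testes (green). Each point is an array and each bar a group mean. For Aard, Lcn2 and Mro the wild-type points lie 1.43 to 2.57 apart.

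Ttyh1 was at 4.80 and 4.87 in wild-type ovaries, 10.18, 9.75 and 10.04 in mutant ovaries, and 7.44, 7.31 and 7.46 in testes. The 3 groups lay far apart, with testis between the ovaries. Its mutant minus wild-type difference was 5.16 ± 0.14, ranked 2nd of all genes behind the cystatin gene Cst9 (5.36).

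Nxf3 was at 3.86 and 4.49 in wild-type ovaries, 9.09, 9.03 and 9.49 in mutant ovaries, and 7.71, 7.73 and 7.75 in testes. The mutant difference from wild-type ovary was 5.02 ± 0.20. The groups did not overlap, and the testes were nearly equal to each other.

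Clec12b was at 3.90 and 3.99 in wild-type ovaries, 8.95, 8.84 and 9.09 in mutant ovaries, and 6.65, 6.75 and 6.73 in testes. Its difference of 5.02 ± 0.12 had the smallest SE of the 9 genes, and its groups did not overlap.

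Tmem114 was at 5.59 and 5.25 in wild-type ovaries, 10.17, 9.74 and 10.00 in mutant ovaries, and 6.87, 6.64 and 6.60 in testes. The mutant difference was 4.55 ± 0.16. Testis stood nearer to wild-type than to mutant ovary.

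Slc52a3 was at 4.75 and 5.23 in wild-type ovaries, 9.31, 9.01 and 9.51 in mutant ovaries, and 7.03, 7.01 and 7.13 in testes. Its difference was 4.29 ± 0.18, ranked 14th. Testis again stood between the ovaries, with no overlap.

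Vsig1 was at 3.90 and 3.83 in wild-type ovaries, 8.53, 8.78 and 9.12 in mutant ovaries, and 8.74, 8.82 and 8.99 in testes. Its mutant difference was 4.95 ± 0.17. The mutant ovaries enclosed the testes in range.

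Lcn2 was at 6.29 and 4.86 in wild-type ovaries, 10.45, 9.61 and 11.65 in mutant ovaries, and 10.89, 10.63 and 10.95 in testes. The mutant arrays spanned 2.04, against 0.04 to 0.59 for the other 8 genes, and they enclosed the testes. The difference from wild-type ovary was 5.0 ± 0.52, and 5.71 or 4.28 without wild-type ovary 1 or 2.

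Aard was at 7.04 and 4.47 in wild-type ovaries, 10.79, 10.79 and 10.75 in mutant ovaries, and 8.48, 8.57 and 8.69 in testes. The mutant arrays agreed within 0.04 while the wild-type arrays were 2.57 apart, the widest such gap of the 9 genes. The difference of 5.02 ± 0.53 became 6.31 with wild-type ovary 2 alone and 3.74 with wild-type ovary 1 alone.

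Mro was at 9.07 and 7.31 in wild-type ovaries, 9.97, 9.64 and 9.52 in mutant ovaries, and 7.00, 6.98 and 7.09 in testes. The lowest mutant array was 0.45 above the higher wild-type array, against 3.32 to 4.89 for the other 8 genes. Its difference of 1.52 ± 0.38 became 2.40 when wild-type ovary 1 was left out and 0.64 when the other was. Just above and below it in the ranking stood Efemp1 and Scrib, both also at 1.52.

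The 3 genes with a wide wild-type gap, Aard, Lcn2 and Mro, were all higher in wild-type ovary 1. Of the marker lists described below, that ovary had the higher mean for oocyte, granulosa (9.13 against 8.60) and Sertoli genes (6.08 against 5.52). It had the lower mean for Leydig genes (6.76 against 7.18). The part of these differences in the values of the 3 genes was not tested. Among mutant ovaries, array 3 was the highest for 5 of the 9 genes and array 1 for the other 4.

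Of the 14 largest differences, the 6 that belong to other genes were Cst9 at 5.36, Septin14 at 4.96, Cstdc1 at 4.78, Cldn11 at 4.44, Cst12 at 4.36 and Trank1 at 4.29. Just after Slc52a3 (4.29) came Lonrf3 at 4.25, Elovl2 at 4.24 and Nr0b1 at 4.19. The selection therefore took most, not all, of the top of the list.

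Against wild-type ovary, testis was higher for 8 of the 9 genes and lower for Mro. Over all genes 24.4% passed as higher in testis and 35.9% as lower, with a median of -0.15, against 2.77 for the 9 genes. The wild-type ovaries are the same arrays that served in choosing the genes, so a low wild-type value enters both contrasts. The choice is not allowed for in the p-values of the 9 genes. The largest rises were those of Lcn2 (5.25 ± 0.52, limma adjusted p = 7.12e-06) and Vsig1 (4.99 ± 0.17, limma adjusted p = 1.42e-09). Nxf3 rose by 3.55 ± 0.20, Clec12b by 2.77 ± 0.12, Ttyh1 by 2.57 ± 0.14 and Slc52a3 by 2.07 ± 0.18, with limma adjusted p between 1.22e-08 and 2.32e-06. Tmem114, the claudin-like gene, rose least (1.28 ± 0.16, limma adjusted p = 4.84e-05). Aard rose by 2.83 ± 0.53 (limma adjusted p = 8.88e-04), or by 4.11 when wild-type ovary 1 was left out and 1.54 when the other was.

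Mro was lower in testis than in wild-type ovary by the fit (-1.16 ± 0.38, limma adjusted p = 0.0231). This call did not survive leaving out wild-type ovary 1 (-0.28, limma adjusted p = 0.187), testis 1 (-1.15, 0.0581) or testis 2 (-1.14, 0.0565). Without wild-type ovary 2 the difference was -2.04. The testes spanned 0.11 for this gene and the wild-type ovaries 1.76.

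**Figure D2:**
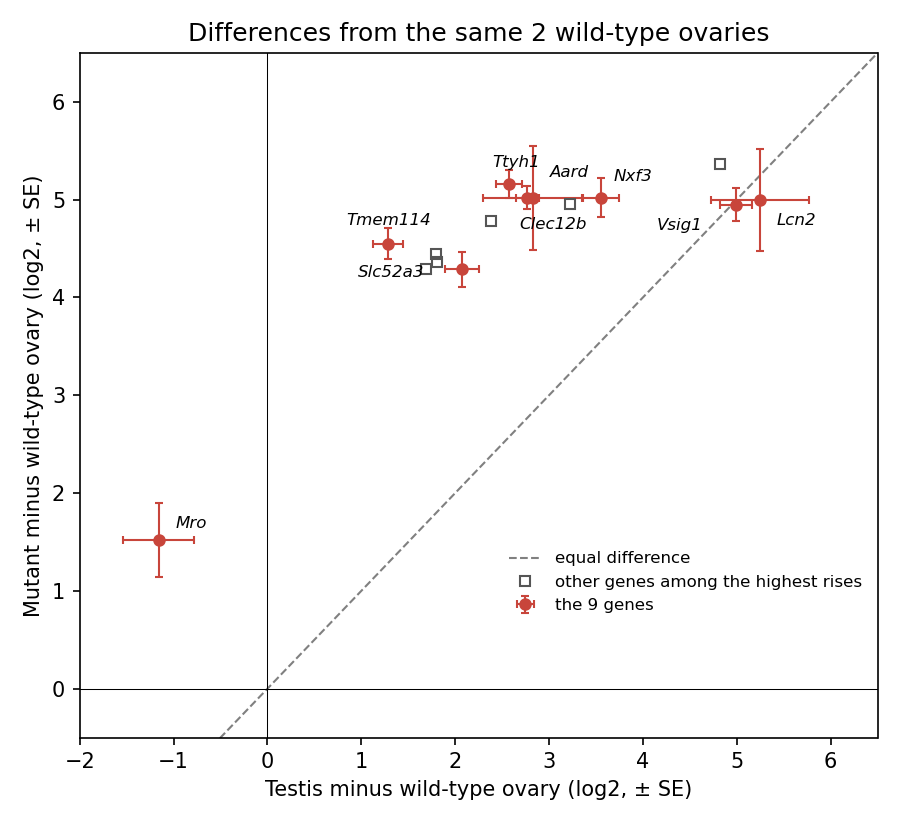
Mutant minus wild-type ovary (vertical axis) against testis minus wild-type ovary (horizontal axis), both in log2 with SE bars, for the 9 genes (red) and, without bars, the 6 other genes among the 14 highest rises (open squares). Both axes use the same 2 wild-type ovaries. Vsig1 and Lcn2 lie by the dashed line of equal difference, the other 7 red points lie above it, and Mro alone is left of 0.

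Mutant ovary was higher than testis for 7 of the 9 genes and lower for none by limma, also at an unadjusted p under 0.05. Over all genes 37.5% passed as higher in mutant ovary and 24.3% as lower, and the median was 0.14, against 2.22 for the 9 genes. The mutant arrays here are those that served in choosing the genes. That choice favours high mutant values, and the p-values for the 9 genes take no account of it. Testis is a mixed organ: spermatid genes averaged 11.04 to 11.17 in the testes and 3.75 to 4.03 in the 5 ovaries. In whole organs, fewer cells that express a gene and less RNA per cell cannot be told apart.

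Tmem114 showed the largest excess over testis (3.27 ± 0.15, limma adjusted p = 9.94e-09), followed by Mro (2.68 ± 0.34, limma adjusted p = 4.48e-05) and Ttyh1 (2.59 ± 0.13, limma adjusted p = 1.92e-08). Clec12b (2.25 ± 0.11), Slc52a3 (2.22 ± 0.16), Aard (2.20 ± 0.48) and Nxf3 (1.47 ± 0.17) were also higher, with limma adjusted p between 2.07e-08 and 0.00207. Vsig1 differed by -0.04 ± 0.15 (95% interval -0.37 to 0.29, limma adjusted p = 0.835). Lcn2 differed by -0.25 ± 0.47, and its interval of -1.29 to 0.78 leaves room for a difference of more than 1 log2 unit (limma adjusted p = 0.67).

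The levels therefore ordered in 3 ways. Ttyh1, Nxf3, Clec12b, Tmem114, Aard and Slc52a3 were highest in mutant ovary, then testis, then wild-type ovary. Vsig1 and Lcn2 were above wild-type ovary in both other groups, which were not shown to differ. Mro was highest in mutant ovary, and both wild-type ovaries were above every testis, although the call of that last difference was lost without wild-type ovary 1, testis 1 or testis 2. Among the 6 other top risers, mutant ovary exceeded testis for each, by 0.53 for Cst9 up to 2.64 for Cldn11. These 6 were ranked on the same mutant arrays, so the excess is described without a test. Over all genes 37.5% passed as higher in mutant ovary than in testis.

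As a profile over the 8 adult arrays, Clec12b tracked the mean of the other 8 genes most closely (r = 0.992) and Mro least (r = 0.437). Lcn2 (0.811) and Vsig1 (0.848), the pair with high testis levels, came next above Mro, and the other 5 genes lay between 0.909 and 0.984. These are descriptions over 3 groups of arrays, in which the choice of the genes already fixes part of the pattern. The genes outside the set with the most similar profile to its mean were Cerk (ceramide kinase, r = 0.9975), Slc41a2 (a magnesium transporter, 0.9971), Lonrf3 (0.9966), Shc4 (an adaptor protein, 0.9957) and Defb19 (a beta-defensin, 0.9956). Cerk was at 5.85 and 5.71 in wild-type ovaries, 8.57, 8.41 and 8.83 in mutant ovaries and 7.34, 7.47 and 7.48 in testes.

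At P3 none of the 9 genes passed as higher or lower in KO pools, where 0.137% of all genes passed as higher and 0.187% as lower (59 genes in all). These animals, arrays and pools had no part in choosing the genes. Lcn2, Slc52a3 and Tmem114 had an unadjusted limma p under 0.05, and no other of the 9 did. The share of all genes at that level was not counted, and 11 of 55 relatives of the 9 genes, described further below, reached it too. In 5 of the 9 genes both KO pools lay above both wild-type pools, which held for 19.3% of all genes, and in 0 of the 9 both lay below, against 19.7% of all genes. The median difference on the log2(signal + 16) scale was 0.34, against -0.01 over all genes.

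**Figure D3:**
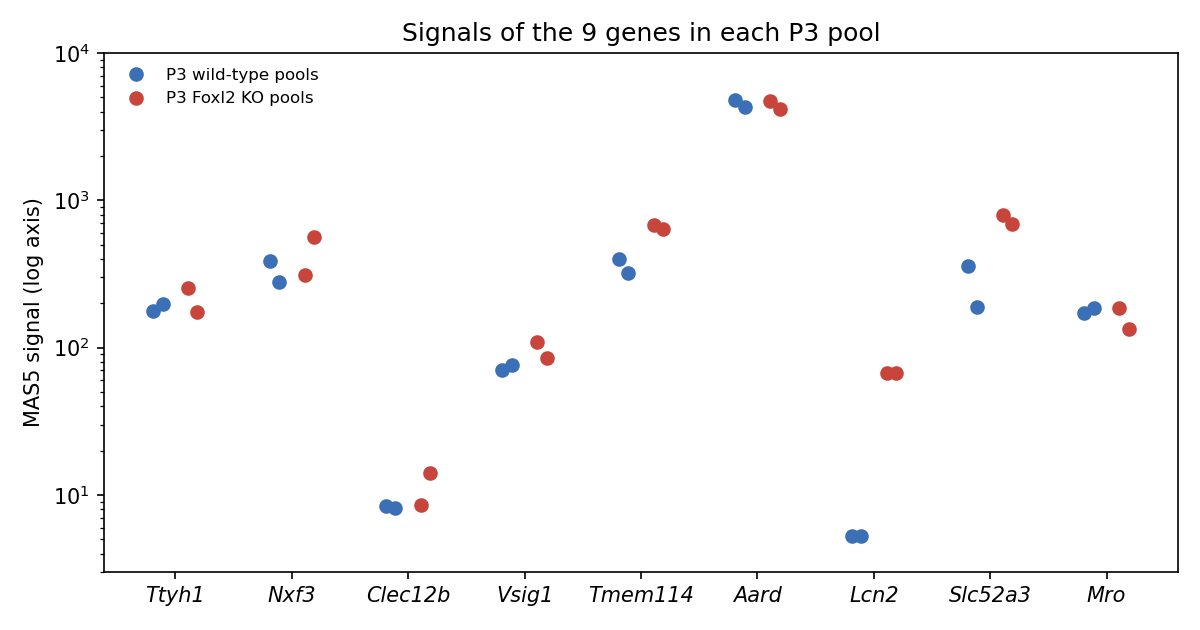
MAS5 signal (log axis) of each of the 9 genes in the 2 wild-type pools (blue) and 2 Foxl2 KO pools (red) at P3. Each point is a pool of ovaries. Both KO points lie above both wild-type points for Clec12b, Vsig1, Tmem114, Lcn2 and Slc52a3.

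Lcn2 had a signal of 5.3 and 5.3 in wild-type pools and of 67.5 and 66.8 in KO pools. On the log2(signal + 16) scale the difference was 1.96 ± 0.35 (adjusted p = 0.107 by limma, 0.00118 before adjustment). Its wild-type signal was far below the array medians, so no fold is given, and the size and rank of the difference move with the pseudocount. It was 3.44 and the 6th largest of all genes with a pseudocount of 1, the 25th largest with 16, and 0.92 and the 155th largest with 64, and passed with none of them.

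Slc52a3 had a signal of 356.7 and 190.0 in wild-type pools and of 797.3 and 688.0 in KO pools, with no overlap. Its difference was 1.45 ± 0.31 (adjusted p = 0.15 by limma, 0.00299 before adjustment), the 107th largest of all genes, and 1.30 and the 46th largest with a pseudocount of 64, where it exceeded Lcn2. Tmem114 was at 397.2 and 320.0 against 684.4 and 642.9, a difference of 0.87 ± 0.20 (adjusted p = 0.181 by limma, 0.00412 before adjustment). For both genes each KO pool was above each wild-type pool, and both missed the threshold after adjustment.

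Vsig1 gave 70.0 and 75.8 in wild-type pools and 108.3 and 85.4 in KO pools (0.34 ± 0.34, limma adjusted p = 0.85). Clec12b gave 8.4 and 8.1 against 8.5 and 14.0 (0.16 ± 0.36, limma adjusted p = 0.941), so a single KO pool made its difference. The spread of these dim signals was as large as the difference.

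Ttyh1 gave 178.3 and 199.0 in wild-type pools and 253.3 and 175.0 in KO pools (0.15 ± 0.30, limma adjusted p = 0.933). Its 3 dimmer probe sets did not share a direction: 138.8 and 60.9 against 177.1 and 174.4 in the first, 51.2 and 71.0 against 26.3 and 10.7 in the second, and 23.9 and 116.8 against 113.9 and 56.5 in the third. Nxf3 gave 388.6 and 277.5 against 312.6 and 560.8 (0.34 ± 0.33, limma adjusted p = 0.847). For both genes the KO and wild-type pools overlapped.

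Aard gave 4763.6 and 4328.6 in wild-type pools and 4705.6 and 4166.0 in KO pools, a difference of -0.04 ± 0.12 with a 95% interval of -0.34 to 0.27. Among the 9 genes this was the most precise P3 value, and its interval lies far below the adult mutant difference of the same gene (5.02), on another array type. Mro gave 173.0 and 186.9 against 186.2 and 133.5 (-0.17 ± 0.30, limma adjusted p = 0.926). Neither gene separated the pools.

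Beside the members, Sertoli genes were higher and granulosa genes lower in adult mutant ovaries. Of 15 Sertoli genes measured, 12 rose and 0 fell (median 2.69), with Sox9 at 3.68 ± 0.14, Sox8 at 2.81 ± 0.15 and Dmrt1 at 2.69 ± 0.15 (limma adjusted p between 1.37e-07 and 1.33e-06). Amh, made by immature Sertoli cells and by granulosa cells, gave -0.59 ± 0.63 (limma adjusted p = 0.603), and passed as higher (0.92) with wild-type ovary 1 left out and as lower (-2.10) with the other left out. The counts were 14 and 0 when wild-type ovary 1 was left out, and 12 and 2 when ovary 2 was. The mean level of the Sertoli list was 6.08 and 5.52 in wild-type ovaries, 8.18 to 8.43 in mutant ovaries and 6.54 to 6.63 in testes, the same order of groups as for 6 of the 9 genes. Of 12 granulosa genes 7 fell, Foxl2 among them, and 2 rose (Amhr2, the receptor of Amh, by 1.92 ± 0.29 and Kitl by 1.22 ± 0.15). With either wild-type ovary left out 8 fell and 2 rose. The list mean went from 9.13 and 8.60 in wild-type to 7.26 to 7.35 in mutant ovaries. How far the 9 genes follow the make-up of the organ was not tested.

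At P3, Cst9 was the single Sertoli gene of 15 to pass (2.01 ± 0.18, limma adjusted p = 0.0208, and from 0.0546 to 0.412 with any pool left out), and Dmrt1 gave 2.86 ± 0.53 without passing (limma adjusted p = 0.117). Amh went the other way without passing (-2.08 ± 0.52, limma adjusted p = 0.225), and the median of the 15 Sertoli genes was -0.14. Gata1 (2.12 ± 0.28, limma adjusted p = 0.0537) and Dhh (1.04 ± 0.15, limma adjusted p = 0.0688) came close to passing. An unadjusted limma p under 0.05 was found for 7 of the 15, a level whose share over all genes was not counted. On the log2(signal + 16) scale the list mean was 8.14 and 7.98 in wild-type and 8.46 and 8.45 in KO pools. After adjustment, 0 of the 9 genes and 1 of the 15 Sertoli genes passed at P3.

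Other cell types that could carry these transcripts were checked by their markers. Lcn2 is also a granule protein of neutrophils. None of 10 neutrophil genes passed in mutant against wild-type ovary by limma (0 at an unadjusted p under 0.05, median -0.00), while Ltf passed as lower without wild-type ovary 1 (-1.09). Their mean level was 3.42 and 3.54 in wild-type ovaries, 3.38 to 3.49 in mutant ovaries and 3.24 to 3.43 in testes. Clec12b belongs to receptors known from myeloid cells. Of 10 macrophage and dendritic cell genes, with a median of 0.60 and 8 at an unadjusted limma p under 0.05, 2 rose (Cd74 by 1.53 ± 0.23 and Adgre1 by 0.73 ± 0.15) and Cd163 fell (-0.53 ± 0.14, a call lost without wild-type ovary 2 or mutant ovary 1 or 2, at up to an adjusted p = 0.161). Without wild-type ovary 2 the count was 3 higher and 0 lower. Their mean was 6.35 and 6.40 in wild-type ovaries, 6.72 to 7.11 in mutant ovaries and 5.19 to 5.30 in testes. Their part in the Clec12b level was not tested. Of 10 surface epithelium and oviduct genes Wt1 (1.66 ± 0.21), which Sertoli and granulosa cells also express, and Krt19 (1.09 ± 0.30) rose. The Krt19 call was lost without wild-type ovary 2, mutant ovary 2 or 3, or testis 2. The list mean was 7.32 and 7.01 in wild-type ovaries, 7.30, 7.59 and 7.94 in mutant ovaries and 5.08 to 5.18 in testes. Genes of this list did not share an order over mutant ovaries 1, 2 and 3. Krt7 was at 7.44, 7.66 and 9.33 there, and Lgals7 at 7.08, 7.87 and 6.85. Lcn2 was at 10.45, 9.61 and 11.65 in the same arrays. The part of these cells in the Lcn2 level was not tested. None of 8 oocyte and none of 8 spermatid genes passed by limma (1 of each had an unadjusted p under 0.05), but 7 oocyte genes rose and 0 fell without wild-type ovary 1 (median 1.48), and 0 rose and 2 fell without wild-type ovary 2 (median -0.33). Of 4 Leydig genes 1 rose (Hsd17b3, 0.90 ± 0.19). With wild-type ovary 1 left out, 2 rose and Star fell (-1.90), and with the other left out 2 rose, Star among them (1.53). Of 8 smooth muscle and endothelial genes 6 fell, or 7 and 5 without wild-type ovary 1 and ovary 2.

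Relatives of the 9 genes mostly did not pass. Of 64 relatives and pathway partners measured in 9 family lists, 5 rose (7.81%) and 3 fell (4.69%) in adult mutant ovary, near the 9.55% and 6.66% over all genes, with a median of -0.05. These counts depend on the wild-type ovaries. Without wild-type ovary 1 more relatives were lower, among them Ttyh3 (-0.95), Rfk (-0.79) and Esam (-0.77).

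**Figure D4:**
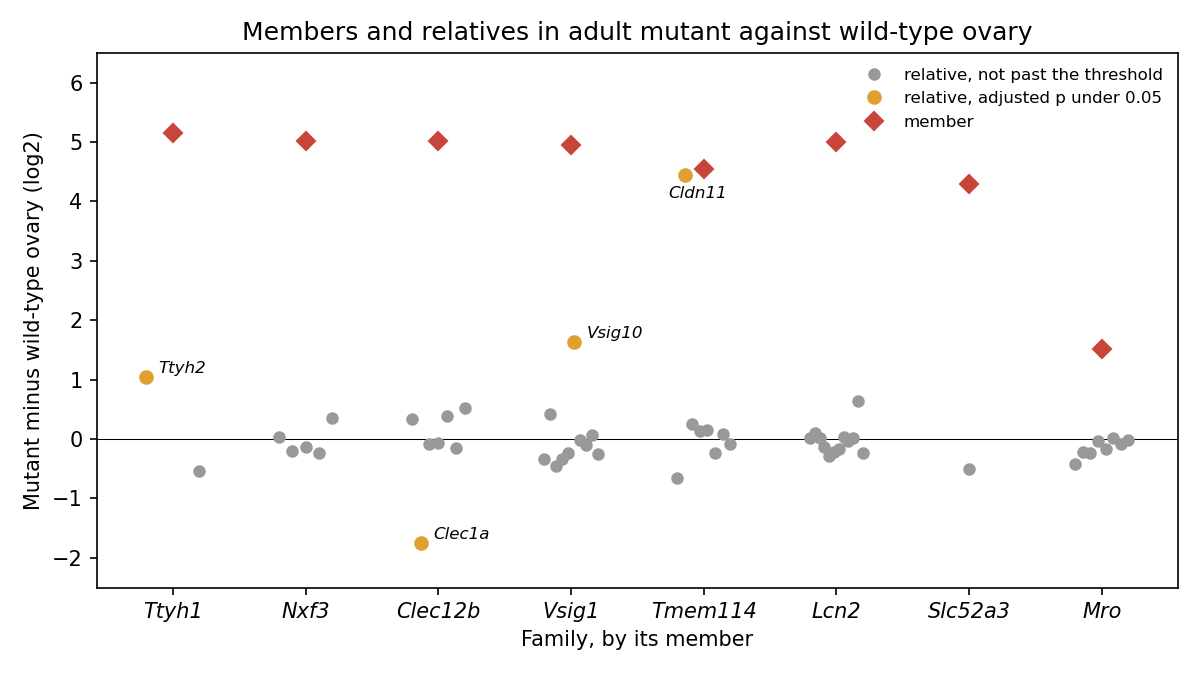
Mutant minus wild-type adult ovary (log2, vertical axis) for 8 of the 9 genes (red diamonds) and the measured relatives of each (circles, orange where the adjusted p was under 0.05). Most relatives lie near 0, with Cldn11 at 4.44, Vsig10 at 1.63 and Ttyh2 at 1.05 the highest of them.

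In the Tweety family, Ttyh2 was at 8.82 and 10.06 in wild-type and at 10.66, 10.28 and 10.52 in mutant ovaries, a rise of 1.05 ± 0.28 (limma adjusted p = 0.0285). That call was lost without wild-type ovary 1 (0.43, limma adjusted p = 0.0701), mutant ovary 1 or 3, or any testis (limma adjusted p up to 0.0865), and the rise was 1.67 without wild-type ovary 2. Ttyh3 gave -0.54 ± 0.22 and did not pass, but passed as lower without wild-type ovary 1 (-0.95, limma adjusted p = 0.00393). Testis was lower than wild-type ovary for both relatives, while it was higher for Ttyh1.

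Of 5 export factors beside Nxf3, none passed in mutant ovary by limma (1 had an unadjusted p under 0.05), from -0.23 ± 0.14 for the cofactor Nxt1 to 0.36 ± 0.16 for Nxt2. Nxf2, a germ cell relative, was at 3.86 and 3.64 in wild-type, 3.59, 3.69 and 3.37 in mutant ovaries and 6.92, 6.20 and 6.73 in testes, a testis rise of 2.87 ± 0.21 (limma adjusted p = 5.63e-07). Both Nxf2 and Nxf3 were above their wild-type ovary level in testis, and Nxf3 was so in mutant ovary too.

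Among 7 lectin genes of the cluster that holds Clec12b, none rose and Clec1a, an endothelial lectin, fell by 1.75 ± 0.20 (6.30 and 5.66 in wild-type, 4.10, 4.48 and 4.12 in mutant ovaries). Clec12a, the closest by name, gave 0.34 ± 0.14 (limma adjusted p = 0.134). In testis 6 of the 7 were lower than in wild-type ovary, the opposite of Clec12b.

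Vsig10 was the 1 of 10 relatives of Vsig1 that rose (1.63 ± 0.23, limma adjusted p = 7.95e-04). It was at 7.78 and 7.00 in wild-type, 9.23, 8.66 and 9.16 in mutant ovaries and 6.39, 6.42 and 6.37 in testes. Unlike Vsig1, it was lowest in testis. Esam, an endothelial adhesion protein, passed as lower without wild-type ovary 1 (-0.77).

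Of 8 claudin-like genes beside Tmem114, Cldn11, the tight junction claudin of Sertoli cells, rose by 4.44 ± 0.17 (5.82 and 5.41 in wild-type, 10.14, 9.80 and 10.24 in mutant ovaries, 7.31 to 7.53 in testes). Tmem235, a near relative of Tmem114, gave -0.09 ± 0.15. Cldn11 and Tmem114 shared the order of the 3 groups.

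None of 12 lipocalins beside Lcn2 passed in mutant ovary by limma (1 had an unadjusted p under 0.05), and Ptgds, the prostaglandin D synthase, gave 0.64 ± 0.31 there while it rose by 2.17 ± 0.31 in testis. Of 11 iron-handling genes 2 rose, the iron transporter Slc11a2 (1.51 ± 0.13, limma adjusted p = 2.74e-05) and Slc22a17, described as a receptor for Lcn2 (0.63 ± 0.13, limma adjusted p = 0.00938). Slc22a17 was at 6.68 and 6.62 in wild-type, 7.13, 7.30 and 7.39 in mutant ovaries and 5.69 to 5.91 in testes, so in testis it did not go with Lcn2. The transferrin receptor Tfrc (-0.93 and 0.87) and the iron exporter Slc40a1 (0.63 and -0.56) passed in opposite directions when wild-type ovary 1 and then the other was left out. Ftl1 (-0.61) and Steap3 (-0.66) fell, but Ftl1 lost its call in 6 of 8 fits that left out an array and Steap3 in 5 of 8. Among these, Ftl1 was at -0.33 when wild-type ovary 2 was left out and Steap3 at -0.42 when wild-type ovary 1 was, and both calls went without any testis or mutant ovary 1, that of Ftl1 also without mutant ovary 3.

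Of the 3 other riboflavin genes listed, Rfk, which makes flavin mononucleotide, was the 1 with an adult value, and it gave -0.50 ± 0.17 (limma adjusted p = 0.0702) while the transporter was 4.29 higher. Without wild-type ovary 1 it passed as lower (-0.79).

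In the maestro family, none of the 8 measured relatives of Mro passed in mutant ovary by limma (1 had an unadjusted p under 0.05, and the median was -0.13), and all 8 were higher in testis than in wild-type ovary (median 4.40). In mutant ovary Mroh1 passed as lower when wild-type ovary 1 was left out (-0.58). Examples in testis were Mroh2b at 6.77 ± 0.12 and Mroh4 at 6.13 ± 0.14. Mro itself gave -1.16 in that contrast. At P3 none of 55 measured relatives in the 9 lists passed by limma. An unadjusted p under 0.05 was found for 11, a level whose share over all genes was not counted.

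The nearest gene with an adult value on each side of the 9 was also looked at, 18 in all. Of these, 3 rose, none fell and the median was 0.06. Bex2, beside Nxf3 on the X chromosome, was at 3.65 and 4.28 in wild-type and at 6.78, 7.20 and 7.03 in mutant ovaries (3.04 ± 0.21, limma adjusted p = 8.12e-06). In testis Bex2 was at 3.41 to 3.85, unlike Nxf3. Bex4, on the other side of Nxf3, gave 0.34 ± 0.29 and did not pass. Rad21 beside Aard (0.44 ± 0.11) and 1110008P14Rik beside Lcn2 (0.66 ± 0.19) passed. Rad21 lost the call without wild-type ovary 2 or mutant ovary 1 or 2 (limma adjusted p up to 0.0694), and 1110008P14Rik without either wild-type ovary, mutant ovary 2 or 3, or testis 2 or 3 (limma adjusted p up to 0.113). The lectin genes Clec1b and Clec9a that flank Clec12b gave -0.08 ± 0.13 and -0.15 ± 0.15.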

How the data were processed

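The deposited adult values are log2 levels that the authors made with RMA in the Affymetrix Expression Console, and the P3 signals are linear intensities, made by the authors with MAS5 and scaled to the same trimmed mean on each array, per the submitters' processing notes and the values. The labels' protocols give a CodeLink method for P3 labelling, while MAS5 and the P3 probe set names are those of Affymetrix arrays. The P3 arrays were thus of the Affymetrix type, and the conflict over the labelling method was not resolved. Probe sets with a single annotated gene were kept, symbols were updated through RefSeq (GRCm38.p6), and the probe set with the highest mean stood for a gene. limma 3.58.1 in R 4.3.3 (lmFit, eBayes with trend, two-sided) fitted the 8 adult arrays together, with a mean per group, and the 4 P3 arrays as log2(signal + 16), which understates changes of dim genes. The fits were run on simulated data with independent normal noise and known changes. That check required only the mean estimated size to be right, and cannot show how calls hold with few arrays. Same-numbered arrays deviated together weakly at most (r from -0.00279 to 0.079 in adult arrays and 0.0423 at P3), so samples were not paired. Differently numbered adult arrays gave r from -0.0683 to 0.0667. Between testes and mutant ovaries, however, every same-numbered r was positive (0.0575 to 0.079) and every other r negative. Deviations were taken from the group mean, so positive same-numbered values push the others down. The negative values are therefore not separate evidence of pairing. With 2 pools a group the P3 check is a single value, since differently numbered pools give its mirror image (-0.0423). The 9 genes, the family and marker lists, the neighbours and the similar profiles to be named followed written rules, set with earlier results of these data known. Alternatives were the mean of all probe sets, no trend, genes above the median level, quantile normalization, a replicate block, 2 groups in the fit, other pseudocounts and leaving out each array.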

Additional observations from a re-analysis of the deposited data

How the results depend on the processing

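With each array left out in turn, the median mutant minus wild-type difference of the 9 genes ranged from 4.53 (without wild-type ovary 2) to 5.02. Testis was lower than wild-type ovary for 0 to 1 of them in these fits, and for 0 with only those 2 groups fitted (Mro: -1.16, limma adjusted p = 0.052). In mutant against wild-type ovary, 1731 genes passed with only those 2 groups fitted, against 3232 in the main fit. The 8 higher in testis and the 7 higher in mutant ovary than testis kept their number in every alternative run. Signs turned for values that had not passed: in mutant ovary against testis Vsig1 ranged from -0.20 to 0.10 (0.03 without testis 3) and Lcn2 from -0.79 to 0.23, and at P3 Aard from -0.12 to 0.05 (0.03 without wild-type pool 1), Ttyh1 from -0.10 to 0.40, Nxf3 from -0.07 to 0.74 and Mro from -0.39 to 0.05. With the number as a replicate block, 1 of the 9 genes passed at P3 (Slc52a3, 1.45, limma adjusted p = 0.0169), and 305 genes did in all against 59; without an intensity trend 0 did (by limma), so P3 calls depend on the fit. Restricting P3 to genes above the median level left 4 of the 9 genes. The cause of these changes was not tested. The arrays give no detection calls here, so dim signals have no lower limit. Examples are those of Lcn2 and Clec12b at P3 and of Clec12b and Vsig1 in adult wild-type ovaries.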
